A study of Mus musculus with 8 samples.

Results

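Respiratory complex assembly factors are proteins that help put the complexes of the mitochondrial respiratory chain together without being part of the finished enzyme. The 10 genes described here, Ndufaf1, Ndufaf2, Ndufaf3, Ndufaf4, Acad9, Ecsit, Foxred1, Surf1, Sco1 and Cox10, were chosen by name, and all 10 were found among the 23432 gene symbols of the count tables. Of these, 7 act on complex I and 3 on complex IV. The choice was made with earlier results of these data known.

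Complex I, the NADH dehydrogenase of the inner mitochondrial membrane, is built from separate modules that are joined stepwise, and each step needs its own assembly factors. Complex IV, cytochrome c oxidase, passes electrons to oxygen and can do so only after copper and heme A have been placed in its core subunits. Loss of individual factors is a known cause of inherited complex I or complex IV deficiency, and in skin the respiratory chain serves epithelial cells as they differentiate.

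The study asked what the acetyltransferase MOF, encoded by Kat8, and Kansl1, a subunit of the NSL complex in which MOF works, do in the developing skin epithelium of mice. Polyadenylated RNA was sequenced from 2 libraries in each of 4 groups. In embryos at E16.5, epithelial cells of back skin that carried K14-H2BGFP, a fluorescent histone driven by the Krt14 promoter, were sorted from control embryos and from MOF cKO embryos (MOFfl/fl/K14Cre). Just after birth, at P0.5, the epidermis of control pups and of Kansl1 cKO pups (Kansl1fl/fl/K14Cre) was lifted off the dermis with Dispase and lysed on TRIzol. The animals had a mixed C57Bl/6J and CD-1 background and were of both sexes, and the controls were littermates. Cre was driven by the Krt14 promoter, which is active in basal cells of skin epithelium, so any cell in which Cre had not acted was sorted or lysed with the rest. The floxed Kansl1 allele loses exon 3.

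The reads counted on genes were 27561688 and 24957817 in E16.5 control, 22484018 and 25876862 in MOF cKO, 9108709 and 14327981 in P0.5 control, and 19774643 and 13712311 in Kansl1 cKO. At these depths 1 count stood for 0.0326 to 0.115 CPM (counts scaled to library size with TMM factors), so the members, with 61 to 5209 counts in a library, lay well above the counting limit. Of the targeted genes, Kat8 had 443 and 408 counts in E16.5 control against 248 and 329 in MOF cKO, which gave a log2 fold change (log2FC) of -0.14 (standard error, SE, 0.179, adjusted p = 0.554, edgeR). Kansl1 had 355 and 745 counts in P0.5 control against 649 and 387 in Kansl1 cKO, a log2FC of -0.52 (SE 0.167, adjusted p = 0.242, edgeR). In CPM both cKO libraries lay below both controls for each targeted gene, and neither difference passed the test. A count over the whole gene also takes in reads from the exons that remain, so it does not check the deletion.

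The libraries had the markers of their labelled tissue. The 6 keratinocyte markers summed to between 33448 and 41737 CPM in the E16.5 libraries, led by Krt5, and to between 57159 and 87603 CPM at P0.5, led by Krt1, on a scale common to all 8 libraries. Other cell types, given on the same scale, differed between groups or libraries. The 9 macrophage markers summed to 18.3 and 41.9 CPM in E16.5 control and 84.0 and 113 CPM in MOF cKO, and 6 of the 9 rose (edgeR). Their most abundant gene at E16.5, Cd68, was at 16.6 and 38.5 CPM in control and 21.2 and 47.8 CPM in MOF cKO, while Lyz2 had 3 and 8 counts in control against 423 and 538 in MOF cKO. No macrophage marker was at 0 in a MOF cKO library, and Tyrobp was at 0 in E16.5 control replicate 2.

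Fewer than 5 CPM of skeletal muscle markers were present in 3 of the E16.5 libraries and 17.8 CPM in MOF cKO replicate 2. Sums in the order E16.5 control, then MOF cKO, were 841 and 1433, then 1418 and 1978 CPM for 6 fibroblast markers and 11.8 and 37.6, then 13.3 and 56.6 CPM for 4 melanocyte markers, led by Dct. The 4 endothelial markers, led by Pecam1, summed to 5.63 and 6.08, then 11.7 and 21.1 CPM, and adipocyte and erythroid markers stayed under 7 CPM in each E16.5 library. The fibroblast marker with the highest mean, Dcn, was at -0.30 in log2 fold change and the other 5 at 0.74 to 1.78. By edgeR, 1 of 4 endothelial markers rose in MOF cKO, and of the 6 keratinocyte markers 1 fell and 2 rose. Krt15 fell, at -1.26 in log2 fold change, and Krt1 and Krt10, spinous layer markers in the study, rose, at 1.67 and 1.12. DESeq2 called 7 macrophage, 2 fibroblast, 2 endothelial, 1 melanocyte and 1 skeletal muscle marker higher, and the same numbers of keratinocyte markers.

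At P0.5 the 4 melanocyte markers summed to 445 and 483 CPM in control and 951 and 1080 CPM in Kansl1 cKO, and the 9 macrophage markers, led by Csf1r, to 177 and 202, then 258 and 278 CPM. The 7 skeletal muscle markers, led by Acta1, were at 319 CPM in P0.5 control replicate 1 and at 5.35 to 8.90 CPM in the other 3 libraries, so this control library stood apart. Fibroblast markers summed to 1864 and 1174, then 1018 and 806 CPM, with Dcn at 0.52 in log2 fold change and the other 5 at -2.53 to -1.30, and adipocyte markers to 23.9 and 12.3, then 6.60 and 9.75 CPM. Endothelial and erythroid markers stayed under 7 CPM in each P0.5 library. None of these lists had a gene called in Kansl1 cKO by edgeR, while DESeq2 called 4 fibroblast markers lower and 3 melanocyte markers higher. The part of these cell types in the values of the assembly factors was not tested. The sexes also differed between libraries, as read from Ddx3y, a gene of the Y chromosome, on the scale of all 8 libraries. Ddx3y was at 59.4 to 88.1 CPM in E16.5 control replicate 2 and both MOF cKO libraries. It was at 126 CPM in P0.5 control replicate 2, and at 0.210 CPM or 0 in the other 4. Both MOF cKO libraries and neither Kansl1 cKO library thus exceeded 0.210 CPM, against replicate 2 alone in each control group. Sex was therefore unbalanced between genotypes in both comparisons, and its part in the values of the assembly factors was not tested.

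The members were compared between MOF cKO and control at E16.5. Ecsit fell 1.84-fold, and the other 9 members did not pass the thresholds (adjusted p at most 0.01, more than 1.5-fold). This made 1 of 10 members called lower beside 9.59% of the 13956 genes tested, and 0 of 10 called higher beside 10%, in edgeR's quasi-likelihood test. At an unadjusted p under 0.05, 6 of the 10 differed, all lower in MOF cKO but Ndufaf4, beside 48.9% of all genes in either direction. DESeq2 called Ecsit lower and Ndufaf4 higher, 1 of 10 in each direction, beside 12.4% of all genes called lower and 13.0% called higher. The share of members called was near that of all genes.

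By direction, 7 members were lower and 3 higher in MOF cKO, with a median log2FC of -0.38 beside -0.02 over all genes tested. Both MOF cKO libraries lay below both controls for 5 of 10 members (Ndufaf1, Ndufaf3, Ecsit, Foxred1 and Cox10) beside 37.7% of all genes, and above both for 3 of 10 (Ndufaf4, Acad9 and Surf1) beside 34.9%. Scaling by library size alone moved the median of all genes to -0.32, and the genes called from 1338 lower and 1395 higher to 2743 lower and 769 higher. On that scale 9 members were lower, since Acad9 and Surf1 turned to -0.12 and -0.07. Of the 10 members, 3 were then called lower and 0 higher. Relative to the median of all genes, the members' median was -0.36 with TMM factors and -0.35 with library size alone. It varied more with the libraries, being -0.49 without E16.5 control replicate 1, -0.28 without replicate 2, -0.19 without MOF cKO replicate 1 and -0.51 without replicate 2. With the replicate number as a block, edgeR called Ndufaf3 and Ecsit lower and Ndufaf4 higher, and 4166 genes against 2733. In bulk RNA, fewer cells of a type and less RNA per cell cannot be told apart.

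In Kansl1 cKO epidermis at P0.5, 9 of the 10 members were lower than in control, and Acad9 alone was higher, under TMM and each other scaling tried. Their median log2FC was -0.34 beside 0.01 over the 13031 genes tested. No member was called by edgeR, 0 of 10 lower and 0 of 10 higher, and neither was any other gene, 0% in each direction. At an unadjusted p under 0.05, 3 of 10 members differed (Ndufaf1, Ecsit and Cox10), all lower, beside 15.7% of all genes in either direction. DESeq2, the tool of the study, called 0 of 10 members, beside 0.775% of all genes.

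Both Kansl1 cKO libraries lay below both controls for 6 of the 10 members (Ndufaf1, Ndufaf4, Ecsit, Foxred1, Sco1 and Cox10), beside 22.7% of all genes, and above both for Acad9, 1 of 10 beside 26.0%. With 2 libraries in a group such a count has no test of its own, and genes of a library are not independent. Leaving out P0.5 control replicate 1, the library with muscle markers, gave a members' median of -0.40, and 0 members were called. The plot of fold changes shows both comparisons side by side.

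**Figure D1:**
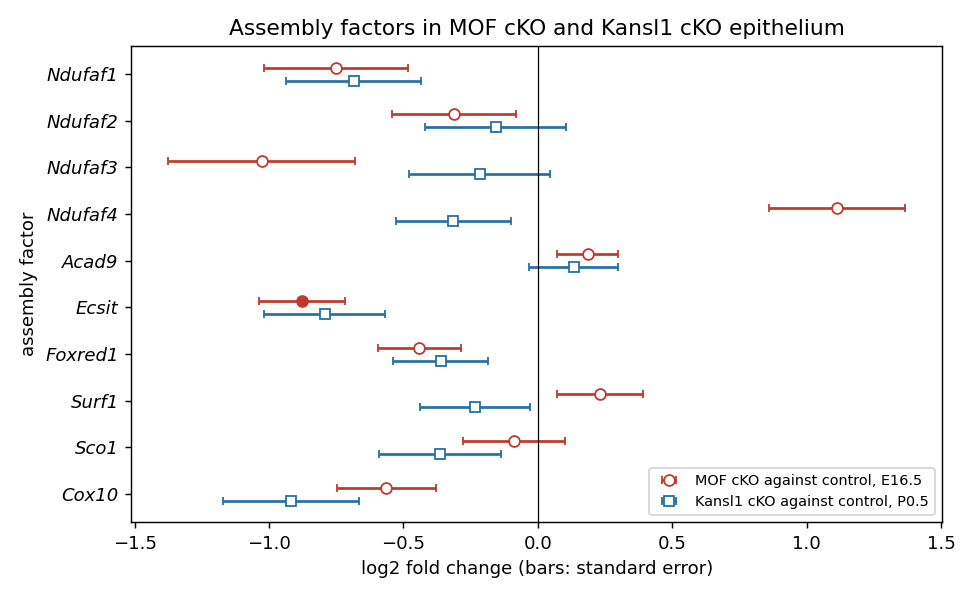
Log2 fold change of each of the 10 assembly factors in MOF cKO against control at E16.5 (circles) and Kansl1 cKO against control at P0.5 (squares), with the SE as bars, from edgeR with 2 libraries per group. Only Ecsit in MOF cKO, at -0.88, is filled as called, Ndufaf4 lies at 1.11 in MOF cKO and -0.32 in Kansl1 cKO, and 9 of 10 Kansl1 cKO values lie below 0.

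Ecsit, Ndufaf1 and Acad9 belong to the same assembly complex of the inner membrane, which helps build the membrane arm of complex I. Ecsit is also known as an adaptor in Toll-like receptor signalling. Its counts were 759 and 639 in E16.5 control against 267 and 298 in MOF cKO, or 24.8, 23.1, 13.4 and 12.6 CPM. Replicates lay close together and the genotypes apart, with a log2FC of -0.88 (SE 0.160, adjusted p = 0.00534, edgeR). The adjusted p rose to 0.0164 without E16.5 control replicate 1 and to 0.0132 without MOF cKO replicate 2, which ended the call, at log2FC values of -0.83 and -0.84.

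At P0.5 Ecsit had 100 and 197 counts in control against 142 and 90 in Kansl1 cKO, or 11.5, 12.7, 6.88 and 7.11 CPM. The libraries again separated by genotype, with a log2FC of -0.79 (SE 0.224, adjusted p = 0.222, edgeR), which did not pass. With any 1 of the P0.5 libraries left out the value ran from -0.86 to -0.74. Gm16845, a transcript antisense to Ecsit that shares 598 of its 2490 exonic bases and was added after the data were seen, had 55 and 68 counts in E16.5 control against 10 and 16 in MOF cKO. Its own log2FC was -1.83 (SE 0.613, adjusted p = 0.0496, edgeR), and it was 0.16 in Kansl1 cKO (SE 0.345). The libraries were made with a directional kit, but the strand setting of the counting is not given in the sources used here, so reads of this overlap are uncertain.

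Ndufaf1, which holds an early membrane intermediate of complex I, had 287 and 256 counts in E16.5 control against 94 and 149 in MOF cKO. In CPM these were 9.36, 9.24, 4.72 and 6.31, a log2FC of -0.75 (SE 0.268, adjusted p = 0.0608, edgeR). At P0.5 it had 131 and 239 counts in control against 159 and 144 in Kansl1 cKO, which is 15.0, 15.5, 7.70 and 11.4 CPM. Both cKO groups lay below their controls in each library, and the cKO replicates differed more from each other than the controls did. The log2FC in Kansl1 cKO was -0.69 (SE 0.250, adjusted p = 0.277, edgeR).

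Acad9, an acyl-CoA dehydrogenase family member that serves as an assembly factor, gave the most reads of the 10 genes. Its counts were 3140 and 2507 in E16.5 control, 2245 and 2519 in MOF cKO, 2120 and 3337 in P0.5 control, and 5209 and 3169 in Kansl1 cKO. The CPM values within E16.5 were 102, 90.5, 113 and 107, and those within P0.5 were 243, 216, 252 and 250. Acad9 thus differed little by genotype, with log2FC values of 0.19 in MOF cKO (SE 0.114, adjusted p = 0.236, edgeR) and 0.13 in Kansl1 cKO (SE 0.164, adjusted p = 0.735, edgeR). Its sign in MOF cKO turned with library size alone, as given above.

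Ndufaf3 and Ndufaf4 bind each other and act together in the early assembly of the arm of complex I that faces the matrix. Ndufaf4 had 499 and 293 counts in E16.5 control against 674 and 576 in MOF cKO, which is 16.3, 10.6, 33.8 and 24.4 CPM. Both MOF cKO libraries lay above both controls, although replicates of each genotype differed. Its log2FC was 1.11 (SE 0.253), with an adjusted p of 0.0123 by edgeR, which did not pass, and of 0.000245 by DESeq2, which did. Without E16.5 control replicate 1 edgeR called it at 1.46 (adjusted p = 0.000121), and without MOF cKO replicate 2 at 1.33 (adjusted p = 0.00460).

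At P0.5 the Ndufaf4 counts were 171 and 234 in control and 303 and 165 in Kansl1 cKO, or 19.6, 15.1, 14.7 and 13.0 CPM. Here the cKO libraries were the lower ones, by little, with a log2FC of -0.32 (SE 0.214, adjusted p = 0.515, edgeR). Ndufaf3 had 264 and 252 counts in E16.5 control against 113 and 72 in MOF cKO, which is 8.61, 9.10, 5.67 and 3.05 CPM. Its log2FC in MOF cKO was -1.03 (SE 0.348, adjusted p = 0.0521, edgeR), the opposite sign to that of its partner, and the MOF cKO replicates were far apart. Without MOF cKO replicate 1 it was called at -1.54 (adjusted p = 0.00824, edgeR). At P0.5 the counts of Ndufaf3 were 63 and 150 in control and 148 and 95 in Kansl1 cKO, or 7.22, 9.70, 7.17 and 7.51 CPM, and the groups overlapped at a log2FC of -0.22 (SE 0.262).

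Ndufaf2 attaches to a late intermediate of complex I, and Foxred1, an oxidoreductase that binds FAD, acts in the middle to late steps. Ndufaf2 had 372 and 456 counts in E16.5 control against 203 and 302 in MOF cKO, with means of 14.3 ± 3.06 and 11.5 ± 1.84 CPM (SD, n = 2). The lower control library, at 12.1 CPM, lay below the higher MOF cKO library, at 12.8 CPM. At P0.5 it had 68 and 122 counts in control against 127 and 101 in Kansl1 cKO, with 7.79, 7.89, 6.15 and 7.98 CPM. The genotypes overlapped in both experiments, at log2FC values of -0.31 (SE 0.231) and -0.16 (SE 0.263). A noncoding gene on the opposite strand, not analysed here, shares 1955 of the 2978 exonic bases of Ndufaf2, which makes its reads uncertain as well.

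Foxred1 had 1287 and 1217 counts in E16.5 control against 552 and 839 in MOF cKO, which is 42.0, 43.9, 27.7 and 35.5 CPM. At P0.5 it had 169 and 315 counts in control against 322 and 194 in Kansl1 cKO, which is 19.4, 20.4, 15.6 and 15.3 CPM. Foxred1 was lower in both cKO groups in each library. The log2FC values were -0.44 in MOF cKO (SE 0.154, adjusted p = 0.0577, edgeR) and -0.36 in Kansl1 cKO (SE 0.177, adjusted p = 0.375, edgeR).

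Among the factors of complex IV, Cox10 makes heme O, the precursor of heme A. Its counts were 1026 and 1002 in E16.5 control against 391 and 647 in MOF cKO, or 33.5, 36.2, 19.6 and 27.4 CPM. At P0.5 they were 89 and 159 in control and 123 and 61 in Kansl1 cKO, which is 10.2, 10.3, 5.96 and 4.82 CPM. Both cKO groups lay below their controls. The log2FC values were -0.56 in MOF cKO (SE 0.184, adjusted p = 0.0456, edgeR) and -0.92 in Kansl1 cKO (SE 0.253, adjusted p = 0.217, edgeR), and neither passed. Without MOF cKO replicate 2 the former was called at -0.83 (adjusted p = 0.00848, edgeR).

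Sco1, a copper chaperone of the core subunit Cox2, had 412 and 347 counts in E16.5 control against 229 and 305 in MOF cKO, or 13.4, 12.5, 11.5 and 12.9 CPM. It had 85 and 160 counts in P0.5 control against 155 and 103 in Kansl1 cKO, or 9.74, 10.3, 7.51 and 8.14 CPM. The E16.5 genotypes overlapped and the P0.5 genotypes did not, at log2FC values of -0.09 (SE 0.189, adjusted p = 0.740, edgeR) and -0.36 (SE 0.228, adjusted p = 0.487, edgeR). Surf1, an inner membrane protein of early complex IV assembly, had 530 and 552 counts in E16.5 control against 444 and 505 in MOF cKO, or 17.3, 19.9, 22.3 and 21.4 CPM. Its counts at P0.5 were 200 and 489 in control and 470 and 301 in Kansl1 cKO, or 22.9, 31.6, 22.8 and 23.8 CPM. The MOF cKO libraries were slightly higher and the Kansl1 cKO libraries overlapped with control, at log2FC values of 0.23 (SE 0.160) and -0.24 (SE 0.205).

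**Figure D2:**
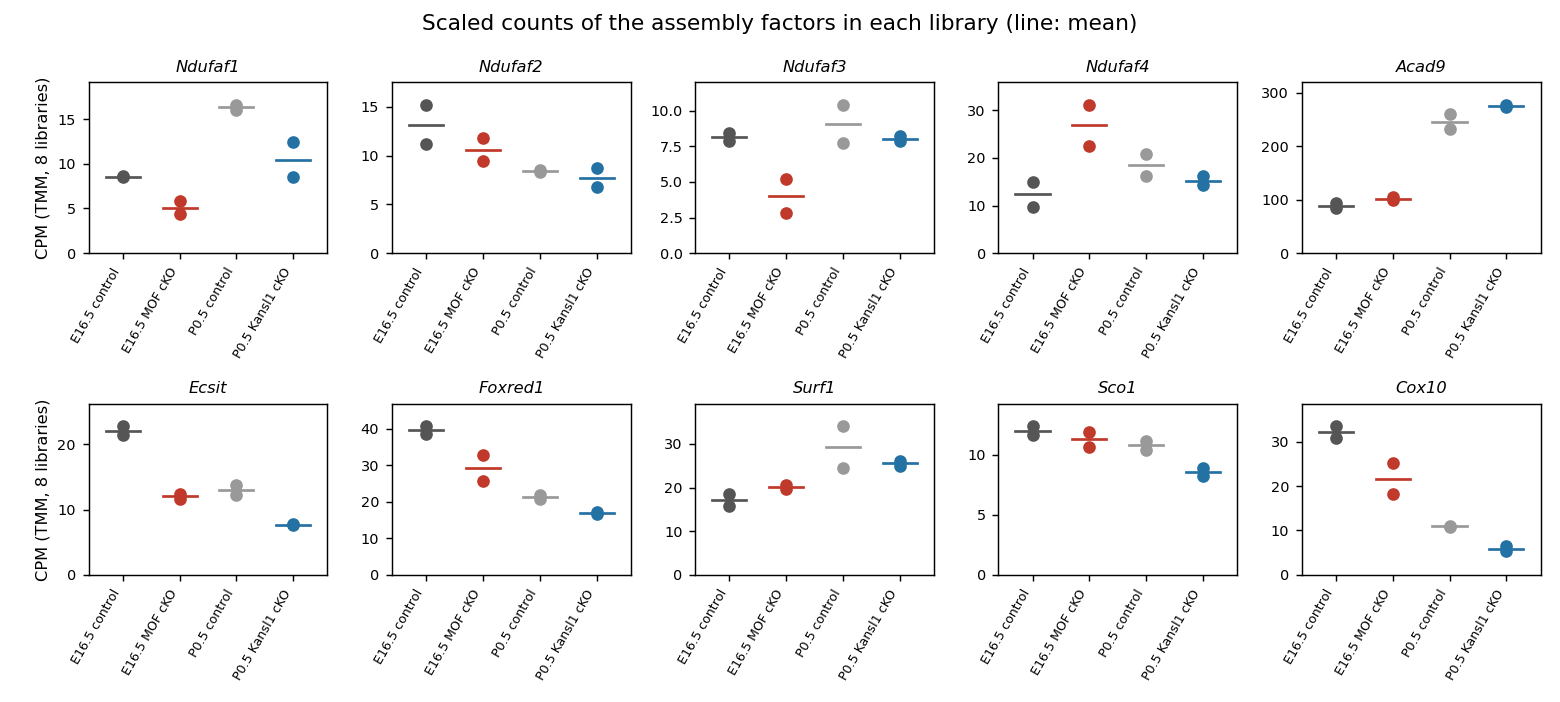
CPM of each of the 10 assembly factors in each library (points) with the mean of the 2 libraries of a group (lines), scaled with TMM factors over all 8 libraries. Cox10 runs from 33.5 CPM in an E16.5 control library down to 5.27 CPM in a Kansl1 cKO library, and Acad9 lies at 232 to 277 CPM in the P0.5 libraries and at 83.7 to 104 CPM in the E16.5 libraries.

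Whether the effect of MOF cKO differed from that of Kansl1 cKO was tested as a contrast over all 8 libraries. No member was called by edgeR, 0 of 10 lower beside 1.17% and 0 of 10 higher beside 1.76% of the 14565 genes tested. At an unadjusted p under 0.05, 1 of 10 members differed beside 31.2% of all genes. This was Ndufaf4, with a difference in log2FC of 1.40 (SE 0.369, adjusted p = 0.0379, edgeR). DESeq2, at an adjusted p of 0.00418, called it, 1 of 10 higher beside 6.70% of all genes and 0 of 10 lower beside 3.57%. For Ecsit the difference was -0.11 (SE 0.261), for Cox10 0.32 (SE 0.306) and for Ndufaf3 -0.84 (SE 0.450, adjusted p = 0.237, edgeR). The median difference over the members was -0.04 beside -0.07 over all genes. Library size alone moved the median of all genes to -0.29, and the genes called from 170 lower and 256 higher to 245 lower and 219 higher. Genotype, stage, isolation and, by the study's reporting summary, the sequencing instrument changed together between the experiments and cannot be told apart. As read from Ddx3y, sex differed between the cKO groups as well, and its part was not tested.

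The levels of the members were set side by side as CPM per kilobase of annotated exons, since longer transcripts give more reads. These CPM were scaled over all 8 libraries. In E16.5 control the order ran from Acad9 at 10.9 ± 0.893 (SD, n = 2) and Cox10 at 10.6 ± 0.634 through Surf1 at 9.79 ± 1.03, Ecsit at 8.85 ± 0.397 and Foxred1 at 8.76 ± 0.326. These neighbours overlapped in their libraries. Ndufaf1 at 5.71 ± 0.0231 lay below them and above the next, and Ndufaf3, Ndufaf2, Ndufaf4 and Sco1 followed between 4.50 and 3.05, each overlapping with its neighbour. In P0.5 control Acad9 led at 30.0 ± 2.36, then Surf1 at 16.7 ± 3.85 and Ndufaf1 at 10.9 ± 0.280, without overlap.

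The other 7 in P0.5 control lay between 5.21 and 2.74 CPM per kilobase, with Sco1 and Ndufaf2 the lowest and overlapping. Cox10 went from rank 2 in E16.5 control, at 10.6 and overlapping with its neighbours, to rank 8 in P0.5 control, at 3.61 ± 0.0394, and to the lowest rank in Kansl1 cKO, at 1.95 ± 0.299, where it overlapped with Sco1. Ndufaf4 went from rank 9 in E16.5 control, at 3.17 ± 0.936, to rank 4 in MOF cKO, at 6.88 ± 1.58, where it overlapped with Cox10 and Foxred1. The exonic length joins all annotated transcripts of a gene, 8192 bases for Acad9, so these levels are approximate.

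Between the 2 control groups, P0.5 epidermis and sorted E16.5 cells, 5 of the 10 members were called by edgeR. Cox10 fell 2.92-fold, from 30.7 and 33.5 to 10.9 and 11.1 CPM on the scale of all 8 libraries, a log2FC of -1.55 (SE 0.217, adjusted p = 0.000318, edgeR). Foxred1 fell from 39.6 ± 1.47 to 21.3 ± 0.870 CPM (SD, n = 2), at -0.89 (adjusted p = 0.00170, edgeR), and Ecsit from 22.0 ± 0.989 to 13.0 ± 1.04 CPM, at -0.76 (adjusted p = 0.00610, edgeR). Acad9 rose 2.76-fold, from 88.9 ± 7.32 to 246 ± 19.3 CPM, at 1.47 (adjusted p = 2.58e-05, edgeR), and Surf1 from 17.2 ± 1.81 to 29.2 ± 6.75 CPM, at 0.78 (adjusted p = 0.00721, edgeR).

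So 3 of 10 were called lower beside 20.6% of all genes and 2 of 10 higher beside 19.6%, and stage, isolation and sequencing instrument cannot be told apart. By edgeR 8 of 9 macrophage, 4 of 4 melanocyte, 4 of 7 skeletal muscle, 1 of 6 fibroblast and the 1 adipocyte marker tested also rose, and of 6 keratinocyte markers 2 fell and 2 rose. Their part in the result was not tested. Cox10 and Acad9 were called with any 1 of the 8 libraries left out. Ecsit was not called without either E16.5 control library (adjusted p = 0.0455 and 0.0445, edgeR), either P0.5 control library (0.0339 and 0.0146) or MOF cKO replicate 2 (0.0188). Foxred1 was not called without E16.5 control replicate 1 (adjusted p = 0.0103, edgeR) or 2 (0.0265) or P0.5 control replicate 1 (0.0121). Surf1 was not called without E16.5 control replicate 1 (adjusted p = 0.0565, edgeR) or 2 (0.0133), MOF cKO replicate 1 (0.0123), P0.5 control replicate 2 (0.0607) or Kansl1 cKO replicate 1 (0.0105) or 2 (0.0103). DESeq2 called 2 of 10 members lower beside 18.6% of all genes and 3 of 10 higher beside 24.2%, without Ecsit and with Ndufaf1. Ndufaf1 was higher at P0.5, at 0.93 (SE 0.251, adjusted p = 0.0110, edgeR), and was called without MOF cKO replicate 2 (1.04, adjusted p = 0.00579), Kansl1 cKO replicate 1 (0.93, adjusted p = 0.00888) or 2 (0.93, adjusted p = 0.00970). Library size alone moved the median of all genes from -0.13 to -0.46, and the genes called from 2997 lower and 2854 higher to 4375 lower and 2144 higher.

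The 10 genes are part of a longer list of 56 assembly factors of complexes I to V in the count tables, of which 46 are others. Pet117, a complex IV factor, had 0 counts in every library and was not tested. In MOF cKO, 5 of the 45 others tested fell beside 9.59% of all genes and 1 rose beside 10% (edgeR), and their median log2FC was -0.28, with 31 lower and 14 higher. With library size alone 37 were lower and 8 higher, the median was -0.59, and 12 were called lower and 1 higher, beside 2743 and 769 of all 13956 genes. For complex I, Nubpl, which delivers iron-sulfur clusters, had 273 and 235 counts in E16.5 control against 50 and 26 in MOF cKO, a log2FC of -2.28 (SE 0.428, adjusted p = 0.00605, edgeR). Atp5sl, also named Dmac2, a factor of the distal membrane arm, had 912 and 886 counts in control against 130 and 194 in MOF cKO, at -2.06 (SE 0.184, adjusted p = 0.000536, edgeR). Ndufaf7, a mitochondrial methyltransferase, had 321 and 411 counts in control against 81 and 74 in MOF cKO, at -1.81 (SE 0.295, adjusted p = 0.00340, edgeR). Together with Ecsit, 4 of the 18 complex I factors tested fell and 0 rose, beside 9.59% and 10% of all genes, and 14 of 18 were lower, with a median of -0.59. By DESeq2, 5 of the 18 were called lower and 1, Ndufaf4, higher, beside 12.4% and 13.0%, and with library size alone 7 were called lower and 0 higher, beside 2743 and 769 of all 13956 genes.

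For complex IV, 2 of 23 factors fell and 1 rose in MOF cKO, beside 9.59% and 10% of all genes, with a median of -0.09, and with library size alone 4 were called lower and 1 higher, beside 2743 and 769 of all 13956 genes. Cox15, the enzyme that turns heme O into heme A and so follows Cox10, had 970 and 797 counts in E16.5 control against 214 and 278 in MOF cKO, at -1.42 (SE 0.160, adjusted p = 0.000912, edgeR). Coa3, which stabilises newly made Cox1, had 834 and 981 counts in control against 321 and 385 in MOF cKO, at -0.95 (SE 0.176, adjusted p = 0.00568, edgeR). Sco2, the paralog of Sco1, had 53 and 49 counts in control against 154 and 218 in MOF cKO, at 2.28 (SE 0.324, adjusted p = 0.00204, edgeR). None of the 4 factors of complex II, 6 of complex III and 4 of complex V was called by edgeR. With TMM factors the largest differences in each of these complexes were -0.87 for Acn9, also named Sdhaf3 (SE 0.526), -0.85 for Bcs1l, which inserts the Rieske protein (SE 0.217, adjusted p = 0.0188, edgeR), and -0.74 for Atpaf2 (SE 0.162, adjusted p = 0.0111, edgeR). At an unadjusted p under 0.05 the numbers were 3 of 4, 3 of 6 and 2 of 4, beside 48.9% of all genes, and by DESeq2 only Atpaf2 was called.

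In Kansl1 cKO, 36 of the 45 others were lower and 9 higher, with a median log2FC of -0.31, and 0 were called by edgeR or DESeq2, against 10 at an unadjusted p under 0.05 (15.7% of all genes). Both Kansl1 cKO libraries lay below both controls for 25 of the 45 beside 22.7% of all genes and above both for 3 beside 26.0%. The 5 others that fell in MOF cKO were at -1.21 (Nubpl, SE 0.365), -0.72 (Atp5sl, SE 0.245), -1.06 (Ndufaf7, SE 0.270), -0.73 (Cox15, SE 0.204) and -0.06 (Coa3, SE 0.289) in Kansl1 cKO. Sco2, at 7 to 27 counts in the P0.5 libraries, was at 0.13 (SE 0.586). Adjusted p-values of these 6 genes were 0.204 or higher (edgeR). In the test of the difference between the experiments, 0 of the 45 were called by edgeR, 13 had an unadjusted p under 0.05 beside 31.2% of all genes, and DESeq2 called 1 lower beside 3.57% and 2 higher beside 6.70%.

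**Figure D3:**
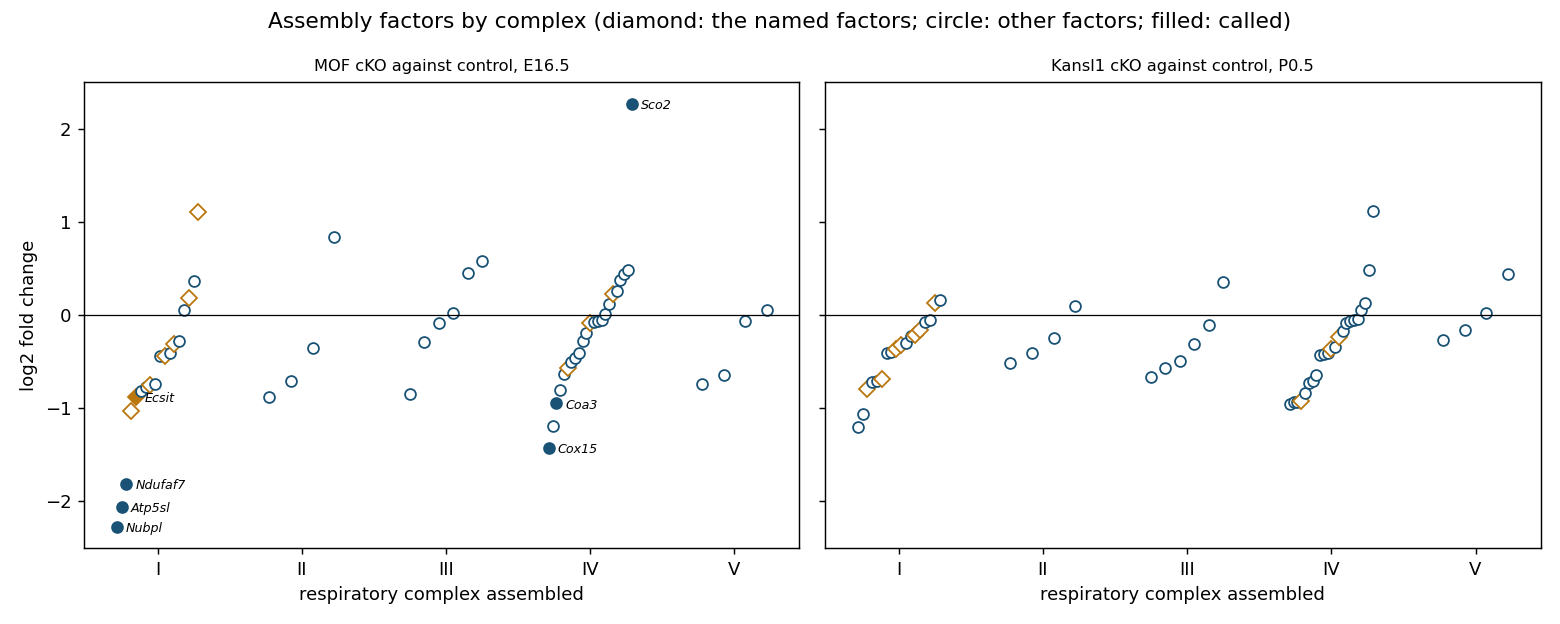
Log2 fold change of the assembly factors tested, grouped by the respiratory complex they act on, in MOF cKO against control at E16.5 (left) and Kansl1 cKO against control at P0.5 (right), with the 10 factors as diamonds, the others as circles and called genes filled and named. In MOF cKO the values run from -2.28 (Nubpl) to 2.28 (Sco2), and in Kansl1 cKO, where no gene was called, from -1.21 to 1.12.

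The subunits of the finished complexes were listed as well, and in MOF cKO 9.59% of all genes fell and 10% rose. Only nuclear-encoded subunits were listed, and Ndufs5, a complex I subunit, had 0 counts in every library and was not tested. Of 35 complex I subunits tested in MOF cKO, 0 fell and 2 rose (Ndufab1 at 1.12 and Ndufb10 at 0.62), with 19 lower and 16 higher, or with library size alone 30 lower and 5 higher, of which 5 were called lower and 1 higher, beside 2743 and 769 of all 13956 genes on that scale. Of 11 nuclear-encoded complex IV subunits, 5 rose (Ndufa4, Cox5a, Cox6a1, Cox7a2 and Cox7c) and all 11 were higher, with a median of 0.50 (edgeR). With library size alone 10 of 11 were higher at a median of 0.19 and 1 was called (edgeR). By single-cell RNA-seq the study reported many genes of the respiratory complexes, complex IV included, as lower in MOF cKO epithelial cells. That assay is a different one, split cells by layer and covered E16.5 and an earlier stage, and the assays were not compared here. In Kansl1 cKO 28 of 35 complex I subunits were lower and 7 higher, with a median of -0.17, and 6 of 11 complex IV subunits were lower and 5 higher, with a median of -0.02. Among both lists 0 were called by edgeR or DESeq2, with 5 of 35 and 0 of 11 at an unadjusted p under 0.05 (15.7% of all genes).

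Ndufaf4 was compared with 14564 other genes by the root mean square difference of centred log2 CPM over the 8 libraries. The 5 nearest were Ndufab1, the acyl carrier protein of mitochondria, S100a11, Pusl1, Rplp2 and Zscan12, at 0.158 to 0.191. Their log2FC values were 0.64 to 1.22 in MOF cKO and -0.33 to -0.07 in Kansl1 cKO. Since these genes were picked for their likeness to Ndufaf4 in the same 8 libraries, such values follow from the choice.

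Several members start close to a gene on the opposite strand, so that both read outward from a common stretch of DNA. Sco1 (chromosome 11, plus strand, 67052670 to 67067070 in mm10) starts 76 bp from Adprm, a protein-coding gene. Adprm had 171 and 179 counts in E16.5 control against 35 and 44 in MOF cKO, and fell 3.32-fold, a log2FC of -1.73 (SE 0.358, adjusted p = 0.00867, edgeR), beside -0.09 for Sco1. In Kansl1 cKO Adprm was at -0.26 (SE 0.308) and Sco1 at -0.36. Ndufaf2 (chromosome 13, minus strand, 108002715 to 108158623) starts 108 bp from Ercc8, a gene of transcription-coupled DNA repair. Ercc8 had 543 and 429 counts in E16.5 control against 256 and 222 in MOF cKO, and 85 and 168 in P0.5 control and 128 and 69 in Kansl1 cKO. Both cKO groups lay below their controls in CPM, at -0.58 (SE 0.216, adjusted p = 0.0702, edgeR) and -0.82 (SE 0.245, adjusted p = 0.228, edgeR), beside -0.31 and -0.16 for Ndufaf2. The difference between the genes of a pair was not tested.

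For Sco1 and Ndufaf2 the windows that hold both starts are printed from RefSeq (GRCm38.p6), read along the strand of the assembly factor, with the bases from the start of the partner to the start of the factor in capitals, since these are the stretches the pairs share. The Sco1 window is chr11:67052420-67052719 on the plus strand, and the Ndufaf2 window is chr13:108158576-108158875 on the minus strand.
Sco1 and Adprm: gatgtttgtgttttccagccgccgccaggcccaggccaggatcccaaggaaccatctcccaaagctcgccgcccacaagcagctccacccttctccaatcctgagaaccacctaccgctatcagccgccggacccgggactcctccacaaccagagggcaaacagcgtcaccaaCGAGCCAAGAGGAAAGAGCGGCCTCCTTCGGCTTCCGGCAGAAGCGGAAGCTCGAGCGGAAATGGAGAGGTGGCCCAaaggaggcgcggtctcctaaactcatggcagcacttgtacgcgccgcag
Ndufaf2 and Ercc8: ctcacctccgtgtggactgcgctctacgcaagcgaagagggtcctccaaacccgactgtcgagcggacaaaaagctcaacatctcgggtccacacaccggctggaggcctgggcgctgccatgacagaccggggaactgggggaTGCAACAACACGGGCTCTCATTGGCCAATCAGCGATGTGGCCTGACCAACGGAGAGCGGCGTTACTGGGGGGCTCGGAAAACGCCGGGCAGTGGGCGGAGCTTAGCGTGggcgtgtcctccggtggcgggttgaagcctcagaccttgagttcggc

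Surf1 (chromosome 2, minus strand, 26913381 to 26916530) and Surf2 overlap at their starts and share 137 of the 1753 exonic bases of Surf1, so reads of this overlap are uncertain too. Surf2 had 486 and 721 counts in E16.5 control against 754 and 954 in MOF cKO, at 0.90 (SE 0.229, adjusted p = 0.0188, edgeR; 0.000947 by DESeq2, which called it), and was at 0.00 in Kansl1 cKO (SE 0.176). Cox10 (chromosome 11, minus strand, 63962627 to 64079468) starts 16 bp from the antisense gene 2810001G20Rik, which had 296 and 246 counts in E16.5 control against 269 and 276 in MOF cKO. Its log2FC values were 0.44 in MOF cKO (SE 0.208, adjusted p = 0.131, edgeR) and 0.25 in Kansl1 cKO (SE 0.261), of the opposite sign to those of Cox10. Another antisense gene, not analysed here, shares 49 of the 3037 exonic bases of Cox10, so reads of this overlap are uncertain too. A noncoding gene on the same strand, also not analysed here, shares 559 of the 8192 exonic bases of Acad9. Ndufaf3 starts 99 bp from 4833445I07Rik, a noncoding gene not analysed here, and 885 bp from Mir191, which had 0 to 3 counts in each library and was not tested. Impdh2, on the opposite strand, shares 48 of the 1815 exonic bases of Ndufaf3 and had 6871 to 7939 counts in the E16.5 libraries, at 0.53 in MOF cKO (SE 0.106, adjusted p = 0.00737, edgeR, under the fold minimum), so reads of this overlap are uncertain as well.

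Of the 10 members, 9 had an entry in the RefSeq promoter table, 250 bases before to 50 after the start, Acad9 being the other. They were searched on both strands for GCGCANGCG (NRF1), CCGGAAGT (GABPA), AAGATGGC (YY1) and GTTGCCATG (RFX), which 6.25%, 3.89%, 2.75% and 0.773% of 32851 promoters of this length hold. Matches were found in Ndufaf4, to NRF1 on both strands at bases 138 to 147 with the strands overlapping, and in Cox10, to GABPA at 224 to 231 and YY1 at 272 to 279. They are printed with the matches in capitals. The Ndufaf4 window is chr4:24897833-24898132 on the plus strand and that of Cox10 chr11:64079423-64079722 on the minus strand.
Ndufaf4: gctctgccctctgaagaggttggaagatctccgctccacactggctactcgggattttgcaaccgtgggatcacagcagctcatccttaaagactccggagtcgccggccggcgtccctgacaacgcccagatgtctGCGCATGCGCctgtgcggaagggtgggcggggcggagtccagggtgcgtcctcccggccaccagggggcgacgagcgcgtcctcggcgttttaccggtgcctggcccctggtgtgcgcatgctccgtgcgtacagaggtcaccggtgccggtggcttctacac
Cox10: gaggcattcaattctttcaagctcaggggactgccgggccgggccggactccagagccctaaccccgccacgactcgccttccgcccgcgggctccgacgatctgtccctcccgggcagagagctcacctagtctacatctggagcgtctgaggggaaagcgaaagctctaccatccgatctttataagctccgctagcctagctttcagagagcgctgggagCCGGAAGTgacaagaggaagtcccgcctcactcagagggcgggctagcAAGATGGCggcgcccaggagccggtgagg
A match describes letters in the window and not binding.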

How the data were processed

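Per the labels and the study's methods, the authors aligned reads to mm10 and deposited HTSeq counts of reads per gene, without normalization. The submitters' processing notes name TopHat2 and the methods name HISAT2 as the aligner, and the strand setting is not given in the sources used here. Libraries were made with a directional kit. Entries naming no gene held 21.1% to 26% of reads and were left out.

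The analysis used R 4.3.3, edgeR 4.0.16 (filterByExpr, TMM, quasi-likelihood test), limma 3.58.1 and DESeq2 1.42.0. P-values were adjusted over all genes tested by the Benjamini-Hochberg method. Calls needed an adjusted p at most 0.01 and more than 1.5-fold change, as in the study, which used DESeq2 and not edgeR. MOF cKO and Kansl1 cKO were each fitted with their own controls, and CPM values are scaled within an experiment unless stated. CPM of the cell type markers, of Ddx3y, of the control groups compared with each other and per kilobase are scaled over all 8 libraries. The difference of effects and the control groups were tested over all 8 libraries. The fit was tested on simulated counts.

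Of the symbols, 98.3% matched GENCODE M21 (also mm10), the source of positions and exonic lengths. Older symbols were matched through RefSeq synonyms, and 1 listed factor, Coa1, was not matched and is not analysed here.

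Named were all members, the targeted genes, other assembly factors called in MOF cKO or Kansl1 cKO or with the largest change in MOF cKO for their complex, subunits called, partners starting within 1000 bp on the opposite strand and the 5 genes nearest to Ndufaf4, the member with the largest change in MOF cKO under TMM factors (Ndufaf3 under library size alone). The members and lists were chosen with earlier results of these data known. The labels do not say that libraries came from separate litters, so p-values measure the spread between these samples. Each group had 2 libraries, which limits precision. Alternatives were DESeq2, a likelihood ratio test, 3 other scalings, no filter on low counts, other thresholds, the replicate number as a block, a single fit over all libraries and leaving out each library. A crossed pairing was added after seeing the data.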

Additional observations from a re-analysis of the deposited data

How the results depend on the processing

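In MOF cKO, 1 member was called lower and 0 higher. Members called higher became 1 (Ndufaf4) with DESeq2, the likelihood ratio test, every gene with at least 1 count, an adjusted p of 0.05 or one fit over all 8 libraries. Under these, all genes called higher went from 1395 to 1816, 1908, 1837, 1943 and 1337. Members called lower became 3 with library size alone and 2 with every gene with at least 1 count. There, all genes called lower went from 1338 to 2743 and 2197. All genes called went from 2733 to 4239 at an adjusted p of 0.05. With the replicate block, 2 members were called lower, 1 higher and 4166 genes in all. Same-numbered libraries deviated together weakly at E16.5 (r = 0.206 across genes) and oppositely at P0.5 (r = -0.202), and the study describes its samples as pairs, while no label says that the numbers mark them. Without any 1 library, 0 to 2 members were called lower, 0 to 1 higher and 2465 to 2635 genes in all. The signs of Acad9 (-0.12) and Surf1 (-0.0742) reversed with library size alone.

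In Kansl1 cKO no alternative called a member. All genes called went from 0 to 101 with DESeq2, 185 with the likelihood ratio test, 190 with every gene with at least 1 count and 1 with library size alone, and stayed 0 with the replicate block. A crossed pairing of the replicate block, chosen after seeing the data, called 1 gene. Without any 1 library 5 to 273 genes were called. No member's sign reversed.

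For the difference of effects, members called higher became 1 (Ndufaf4) with DESeq2, the likelihood ratio test, every gene with at least 1 count and an adjusted p of 0.05. All genes called went from 426 to 1496, 1710, 1651 and 2011 under these, and to 1 with the replicate block. Without any 1 library 81 to 423 genes were called, and no member. Small differences reversed: Ndufaf1 to 0.000292 with DESeq2, 7.1e-05 with DESeq2 size factors in edgeR, 0.0332 with every gene with at least 1 count, and 0.04, 0.09 and 0.19 without E16.5 control replicate 2, MOF cKO replicate 1 and Kansl1 cKO replicate 2. Acad9 went to -0.21 with library size alone, -0.02 without MOF cKO replicate 1 and -0.0644 without P0.5 control replicate 1. Ecsit went to 0.00924 and Foxred1 to 0.0155 with every gene with at least 1 count. Without E16.5 control replicate 2, Ndufaf2 went to 0.19 and Foxred1 to 0.0658, without MOF cKO replicate 1 Foxred1 went to 0.05, and without MOF cKO replicate 2 Ecsit went to 0.0654. Without any 1 library the differences ran from -0.362 to 0.187 (Ndufaf1), -0.405 to 0.194 (Ndufaf2), -0.0644 to 0.199 (Acad9), -0.214 to 0.0654 (Ecsit) and -0.166 to 0.0658 (Foxred1). The cause was not tested.

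Between the controls, 3 members were called lower and 2 higher. With library size alone 4 were called lower and 1 higher, and with DESeq2 size factors in edgeR 2 lower and 3 higher. All genes called went from 2997 lower and 2854 higher to 4375 and 2144, and to 2490 and 3191, in that order. Without any 1 library 1 to 3 were called lower, 1 to 3 higher and 3752 to 5735 genes in all. Ndufaf3 reversed to -0.17 with library size alone and to -0.0864 without P0.5 control replicate 2 (range without any 1 library -0.0864 to 0.356). A left-out library leaves a group of 1, which is assumed to vary like the others. Control replicate 1 at P0.5 had the lowest depth, 9108709 counts.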
